A study of Mus musculus with 8 samples.

Results

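The 10 genes described here encode the NRF2 antioxidant response in mouse primary hepatocytes: the transcription factor Nfe2l2 (NRF2), its inhibitor Keap1, and the effectors Nqo1, Hmox1, Gclc, Gclm, Txnrd1, Srxn1, Gsr and Cat. They were taken by gene name from a table of raw read counts with 56748 genes, and all 10 were found in it. All 10 were among the 14279 genes that passed the filter on low counts and were tested.

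NRF2 is a basic leucine zipper factor that pairs with small MAF proteins on antioxidant response elements. In unstressed cells KEAP1 holds NRF2 in the cytoplasm and, with the CUL3 and RBX1 ubiquitin ligase, marks it for degradation. Electrophiles and oxidants modify cysteines of KEAP1, and NRF2 then builds up in the nucleus and induces genes of glutathione synthesis, thioredoxin reduction, NADPH supply, quinone reduction and conjugation. Control of NRF2 is thus mostly at the level of the protein, which RNA counts do not measure. In liver this response protects hepatocytes from drug metabolites and lipid peroxidation.

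Cells came from mice carrying floxed alleles of both genes (Yapfl/fl; Tazfl/fl, C57BL/6J), whose hepatocytes lose YAP and TAZ once Cre is expressed. The mice were 7 to 8 weeks old, an age that the paper's methods give for the virus injection. The methods also describe a tdTomato reporter in this line, which Cre switches on. Cre was delivered by AAV8 under the hepatocyte promoter TBG (AAV8-TBG-Cre, the knockout), and control mice received AAV8-TBG-Null and are called wild type here as in the labels, although they carry the same floxed alleles and also received virus. Hepatocytes were isolated 10 days later by collagenase perfusion and a density gradient and were cultured for 24 h on collagen-coated polyacrylamide hydrogels of 1 kPa (soft) or 20 kPa (stiff). Each of the 4 groups had 2 libraries, and the sources give the sex of the mice differently. Nothing in the labels says that the 2 libraries came from separate animals, so p-values measure only the spread between these libraries, which may be technical. The comparisons ask whether matrix stiffness moves these genes, whether it does so without YAP and TAZ, and whether the genotypes differ on each hydrogel.

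Some promoter sequences are shown first, because they carry the letters to which NRF2 and related zipper factors are known to bind. The core of the antioxidant response element, TGACNNNGC, was searched on both strands of RefSeq promoter windows (GRCm38.p6, 250 bases before to 50 after each start site). Of the members, 7 had a window, and the core occurred in 4 of them (Nfe2l2, Srxn1, Gclm and Txnrd1, the last in 1 of its 3 windows), against 3781 of 27025 genes with a window (14.0%). In Srxn1 the core lay 28 bases after the start and in Nfe2l2 240 bases before it. Both of these stretches overlap an exon and are not printed. The core lay 134 bases before the start in Gclm and 92 bases before it in Txnrd1, both on the reverse strand, and capitals mark it here.
Gclm, chr3:122245398-122245456, plus strand: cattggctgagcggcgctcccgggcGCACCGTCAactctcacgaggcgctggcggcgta
Txnrd1, chr10:82859089-82859147, plus strand: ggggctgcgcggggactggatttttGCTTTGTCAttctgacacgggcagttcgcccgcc
The Srxn1 window also held the AP-1 element TGAGTCA at 102 and at 45 bases before the start, a motif chosen for the search after the window had been read. No other member window held it, and 5.95% of all genes with a window did. Capitals mark it in both stretches.
Srxn1, chr2:152105397-152105453, plus strand: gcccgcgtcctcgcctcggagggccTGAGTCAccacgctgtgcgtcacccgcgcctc
Srxn1, chr2:152105454-152105510, plus strand: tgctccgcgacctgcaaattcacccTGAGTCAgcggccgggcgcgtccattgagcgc
The windows of Cat, Nqo1 and Keap1 held neither run of letters, and a match is a description of letters, not of binding. Hmox1, Gclc and Gsr are named only.

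Library totals lay between 18324083 and 26442310 counts, and replicate libraries differed by more than counting noise in every group (chi-square per degree of freedom 2.62 to 5.45). The deleted genes gave 95.5 to 140 normalized CPM (CPM, a count scaled to the library's size, here with TMM factors) for Yap1 and 41.5 to 65.2 for Wwtr1 (TAZ) in the wild-type libraries, against 28.4 to 31.8 and 13.7 to 16.6 in the knockout libraries. The 7 hepatocyte markers found in the table summed to 88408.5 to 92145 CPM in wild-type and 63682.5 to 64348 CPM in knockout libraries, and none of the 7 was at 0 in any library. The sum is mostly Alb (55433 to 85485.5 CPM). Of the 7 markers, 5 were lower and 1 higher on stiff in wild type past the adjusted p (median log2 fold change -0.30), and the median of the difference between the genotypes' stiffness effects was 0.29, the signs that most NRF2 effectors had. Markers of other liver cells were low but not level. The 8 Kupffer cell and macrophage markers summed to 77.7 to 80.7 CPM in the wild-type soft libraries, 54.9 to 59.9 in wild-type stiff, 114.7 to 115.6 in knockout soft and 115.9 to 118.8 in knockout stiff. The sums of the 6 endothelial markers (51.0 to 56.3, 35.9 to 36.3, 70.2 to 71.0 and 71.3 to 75.2 CPM) followed the same order of groups. So did those of the 8 stellate cell and fibroblast markers (31.9 to 32.1, 21.1 to 23.0, 48.0, and 49.7 to 52.0 CPM). Of the 7 stellate markers tested, 3 were lower and 1 higher on stiff in wild type past both thresholds. In the knockout on stiff 5 were higher and 1 lower than in wild type. Of the macrophage sum, Cd68 alone gave 32.8 to 62.4 CPM. The sum of the 6 cholangiocyte markers ran against these sums (539 to 573, 586 to 589, 352 to 354 and 326 to 338 CPM). That sum is mostly Spp1 (285 to 532 CPM). Of the 4 that were tested, 3 were lower and 1 higher in the knockout on stiff, with 2 of the lower ones past both thresholds. The 13 mitochondrially encoded genes, a sign of RNA quality, summed to 30175 to 32308 CPM in wild-type soft, 25956 to 26216 in wild-type stiff, 34480 to 35272 in knockout soft and 32547 to 32850 in knockout stiff. Of the defining markers, Cftr was at 0 in all 8 libraries, Lrat in 4, Krt7 in 2 and Timd4 in 1. Like the macrophage, endothelial, stellate and mitochondrial sums, most of the NRF2 effectors described below were lowest in the wild-type stiff libraries and higher in the knockout, and the part of other cells, of RNA quality and of hepatocyte state in the results was not tested. In such bulk libraries, fewer cells of a type and less RNA per cell cannot be told apart.

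Per length, Srxn1 and Cat were the most abundant of the 10 genes and Keap1 the least. In the wild-type soft group the mean levels were 459 RPKM for Srxn1 and 418 for Cat, followed by Gclc (221), Gsr (139), Txnrd1 (75.4), Hmox1 (68.4), Nfe2l2 (36.3), Gclm (31.8), Nqo1 (25.1) and Keap1 (15.2). On the stiff hydrogel the wild-type order began with Cat (322 RPKM) and then Srxn1 (264), and Hmox1 (74.7) stood above Txnrd1 (67.8). In both knockout groups Srxn1 led again (479 RPKM on soft and 490 on stiff), and Nfe2l2 stood below Gclm and Nqo1, in the last place but one (31.2 and 29.2 RPKM). Neighbours in these orders did not overlap between libraries, with the exception of Nqo1 (36.7 to 39.9 RPKM) and Gclm (36.5 to 37.4) in the knockout stiff group.

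**Figure D1:**
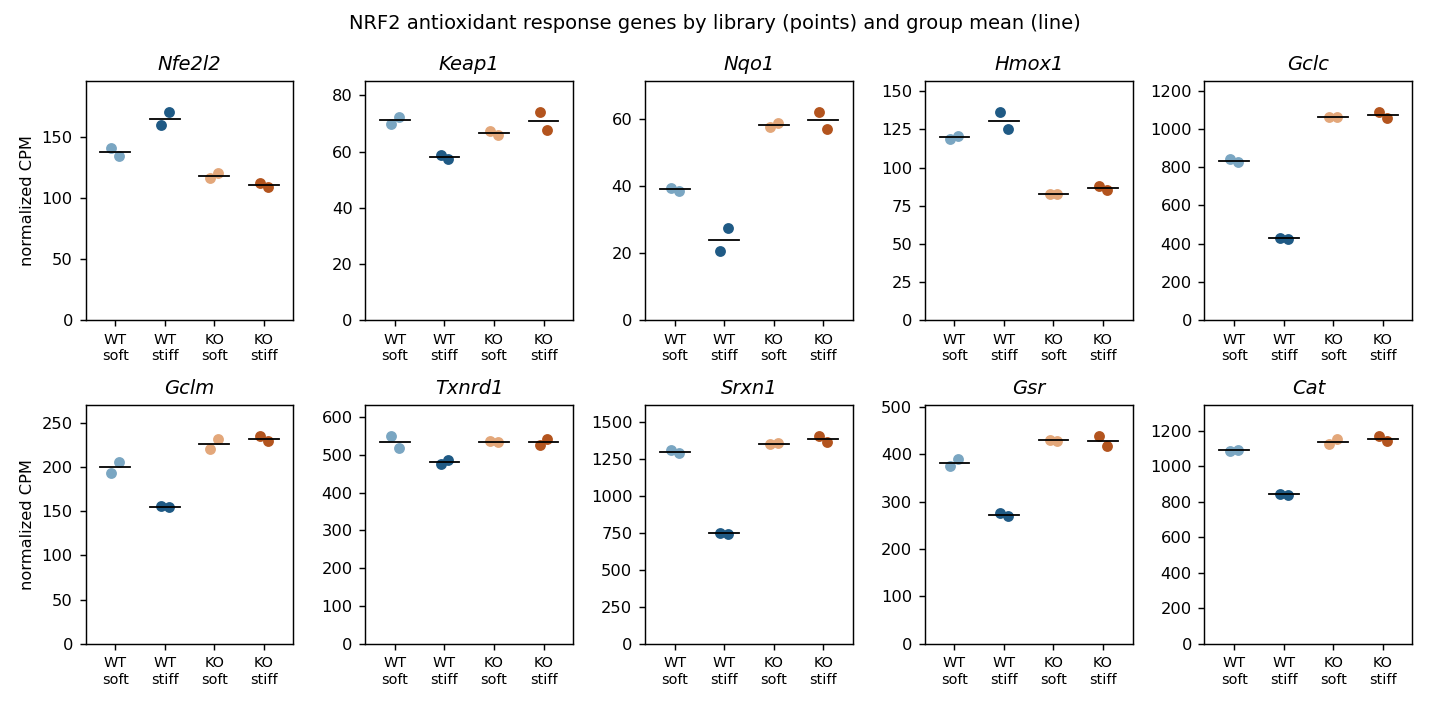
Normalized CPM (vertical axes, each from 0) of the 10 genes in each of the 4 groups, with 1 point per library (2 per group) and a line at the group mean. For Gclc, Srxn1, Gsr, Gclm, Cat, Nqo1, Txnrd1 and Keap1 the wild-type stiff libraries lay below all 6 others. For Nfe2l2 and Hmox1 they lay above them. How many of all tested genes did either was not counted.

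In wild-type hepatocytes 3 of the effectors, Gclc, Srxn1 and Nqo1, fell on the stiff hydrogel, and none of the 10 genes rose. A gene counts as risen or fallen here if its Benjamini-Hochberg adjusted p is below 0.05 and its log2 fold change is above 0.5 in size, which 19.3% of all tested genes met (10% higher and 9.26% lower). On the adjusted p alone, 8 were lower and 1 higher, where 20% and 21.1% of all tested genes were. The median log2 fold change of the 10 was -0.37, beside -0.0087 over all tested genes.

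Gclc, the catalytic subunit of glutamate-cysteine ligase and the rate-limiting step of glutathione synthesis (ENSMUSG00000032350, chr9:77661817-77701767 as the deposited table places it), was read at 842 and 825 normalized CPM in the wild-type soft libraries and at 430 and 424 in the stiff ones. The groups were far apart and the replicates close, and the level fell by 48.8% (log2 fold change -0.96, SE 0.034, edgeR quasi-likelihood adjusted p = 1.24e-13). Its modifier subunit Gclm (ENSMUSG00000028124, chr3:122039206-122064381) was at 194 and 206 CPM on soft and 156 and 155 on stiff. This was lower by a log2 value of -0.36 (SE 0.047, edgeR adjusted p = 5.35e-06), past the p but under the minimum fold. The 2 subunits of 1 enzyme thus moved the same way by different amounts, though no test of the difference between them was made.

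Srxn1, sulfiredoxin, which repairs overoxidized peroxiredoxins (ENSMUSG00000032802, chr2:151947436-151953296), stood at 1305 and 1286 CPM on soft and at 746 and 744 on stiff. It fell by 42.5% (log2 fold change -0.80, SE 0.031, edgeR adjusted p = 5.59e-13), with no overlap. Its window is the one with the AP-1 elements shown above.

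Nqo1, the quinone reductase often used as the readout of NRF2 (ENSMUSG00000003849, chr8:108114857-108129838), stood at 39.4 and 38.5 CPM on soft and at 20.6 and 27.4 on stiff. The stiff libraries differed more from each other than the replicates of other groups did, yet both lay below the soft ones. Nqo1 fell by 38.5% (log2 fold change -0.70, SE 0.095, edgeR adjusted p = 9.26e-06), and with each library left out in turn the value ranged from -0.92 to -0.50.

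Glutathione reductase Gsr, which regenerates glutathione with NADPH (ENSMUSG00000031584, chr8:34142551-34188191), was at 375 and 390 CPM on soft and 275 and 270 on stiff. Its log2 fold change of -0.49 (SE 0.041, edgeR adjusted p = 1.81e-08) stopped just short of the minimum, and without the first wild-type soft library it was -0.51 and passed. Catalase Cat, the peroxisomal enzyme that breaks down hydrogen peroxide (ENSMUSG00000027187, chr2:103284194-103315505), was at 1089 and 1094 CPM on soft and 845 and 838 on stiff, a log2 difference of -0.37 (SE 0.032, edgeR adjusted p = 2.61e-08). In both genes each stiff library was below each soft one.

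Thioredoxin reductase Txnrd1 (ENSMUSG00000020250, chr10:82669785-82733546) had the smallest difference of the effectors that passed the adjusted p, with 550 and 519 CPM on soft and 475 and 486 on stiff (log2 fold change -0.15, SE 0.039, edgeR adjusted p = 0.00378). Heme oxygenase Hmox1, which breaks heme down to biliverdin, iron and carbon monoxide (ENSMUSG00000005413, chr8:75820249-75827217), was the one effector that did not run lower. It was at 119 and 121 CPM on soft and at 136 and 125 on stiff (log2 fold change 0.13, 95% interval 0.017 to 0.24, edgeR adjusted p = 0.0605).

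Nfe2l2 (ENSMUSG00000015839, chr2:75505857-75534985) was at 141 and 134 CPM on soft and at 160 and 170 on stiff, against the direction of most effectors. The value was higher by 19.7% (log2 fold change 0.26, SE 0.051, edgeR adjusted p = 0.000479) and did not reach the minimum fold. Keap1 (ENSMUSG00000003308, chr9:21141026-21150657) was at 69.9 and 72.3 CPM on soft and at 58.7 and 57.2 on stiff (log2 fold change -0.29, SE 0.059, edgeR adjusted p = 0.000596). In the RNA of both genes the stiff libraries were therefore apart from the soft ones, by less than the minimum.

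Without YAP and TAZ, none of the 10 genes changed with stiffness. By edgeR 0 passed both thresholds, where 0.021% of all tested genes did (3 genes), and DESeq2 also called 0. An unadjusted edgeR p under 0.05 was found for 0 members and for 1077 of the 14279 tested genes. The lack of change was thus shared by almost all tested genes. The log2 fold changes lay between -0.093 (Nfe2l2) and 0.086 (Keap1), the median was 0.029 beside 0.0076 over all tested genes, and edgeR adjusted p-values were 0.685 to 0.989. The 95% intervals of all 10 fell between -0.20 and 0.21, so that differences over 0.5 lay outside them. Gclc, for one, was read at 1062 and 1062 CPM on soft and 1087 and 1056 on stiff. Srxn1 was at 1347 and 1355 on soft and 1404 and 1362 on stiff. Nqo1 was at 57.5 and 58.9 on soft and 62.0 and 57.0 on stiff. In Nqo1, Gclc, Gclm, Txnrd1, Gsr and Cat the soft and stiff libraries of the knockout overlapped.

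**Figure D2:**
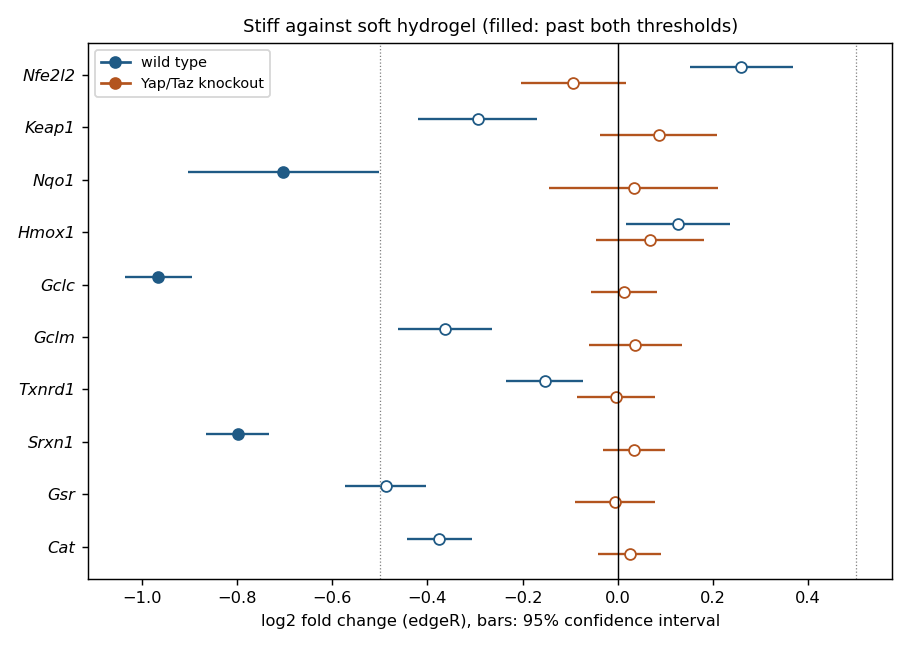
Log2 fold change, stiff against soft, of each gene in wild-type (blue) and Yap/Taz knockout (orange) hepatocytes, with the edgeR 95% confidence interval as a bar, dotted lines at the minimum fold of 0.5 and filled points past both thresholds. Gclc, Srxn1 and Nqo1 are filled in wild type, and every knockout interval lies between -0.20 and 0.21.

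The stiffness effects of the 2 genotypes were compared directly as an interaction, the knockout effect minus the wild-type effect. It shares its wild-type libraries with the comparison above, so the values are not a second line of evidence. The same 3 genes passed both thresholds, all positive, where 8.64% of all tested genes were positive and 8.21% negative (16.8% in all). They were Gclc (log2 difference 0.98, SE 0.047, edgeR adjusted p = 2.94e-11), Srxn1 (0.83, SE 0.044, adjusted p = 9.88e-11) and Nqo1 (0.74, SE 0.13, adjusted p = 0.000227). On the adjusted p alone 8 genes were positive and 1 negative, where 15.3% and 14.1% of all tested genes were. The negative one was Nfe2l2 (log2 difference -0.35, SE 0.073, edgeR adjusted p = 0.0012). Among the genes under the minimum fold were Gsr (0.48), which passed at 0.51 without the second knockout stiff library, Gclm (0.40), Cat (0.40), Keap1 (0.38) and Txnrd1 (0.15). For Hmox1 the effects were not shown to differ (-0.059, 95% interval -0.22 to 0.098, edgeR adjusted p = 0.603).

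Between the genotypes on the soft hydrogel 1 of the 10 genes was higher in the knockout and 1 lower past both thresholds, where 2.02% and 4.65% of all tested genes were (6.67% in all). Nqo1 rose from 39.4 and 38.5 CPM in wild type to 57.5 and 58.9 in the knockout (log2 fold change 0.58, SE 0.087, edgeR adjusted p = 8.30e-05). Hmox1 fell from 119 and 121 CPM to 82.9 and 82.5 (log2 fold change -0.53, SE 0.053, edgeR adjusted p = 5.63e-07), and with library size alone as the scaling its value was -0.48 and no longer passed. Both pairs of libraries stood apart with little spread.

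The others were within the minimum fold on soft. Gclc was at 842 and 825 CPM in wild type and 1062 in both knockout libraries, a log2 difference of 0.35 (SE 0.033, edgeR adjusted p = 3.38e-07). Nfe2l2 was at 141 and 134 against 116 and 121 CPM (log2 difference -0.22, edgeR adjusted p = 0.00491). Both differences were past the adjusted p only, as were those of Gclm (0.18) and Gsr (0.17). With Nqo1 and Hmox1 this made 4 genes higher and 2 lower on the adjusted p alone, where 7.48% and 10.9% of all tested genes were. Srxn1 (0.060), Cat (0.059), Keap1 (-0.092) and Txnrd1 (0.00059) did not pass it, with 95% intervals between -0.21 and 0.13, and for Txnrd1 the libraries overlapped.

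On the stiff hydrogel 7 of the 10 genes differed between the genotypes past both thresholds, 5 higher and 2 lower in the knockout, where 28.7% of all tested genes did (13.7% higher and 15% lower). Like the comparison on soft, it shares its libraries with the stiffness comparisons above, so its values are not independent of them. All 10 passed the adjusted p (8 higher and 2 lower), as did 51.1% of all tested genes (25.4% and 25.7%), and the median log2 fold change was 0.52 beside 0.011 over all tested genes. Gclc was at 430 and 424 CPM in wild type and at 1087 and 1056 in the knockout, 2.51-fold higher (log2 fold change 1.33, SE 0.034, edgeR adjusted p = 5.81e-16). Nqo1 was at 20.6 and 27.4 against 62.0 and 57.0 CPM, 2.48-fold higher (log2 fold change 1.31, SE 0.093, edgeR adjusted p = 1.01e-09). Srxn1 was at 746 and 744 against 1404 and 1362 CPM (log2 fold change 0.89, SE 0.031, edgeR adjusted p = 4.69e-14). In these 3 genes every knockout library was far above every wild-type library.

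Gsr and Gclm also rose. Gsr was at 275 and 270 CPM in wild type and 439 and 417 in the knockout (log2 fold change 0.65, SE 0.041, edgeR adjusted p = 1.74e-10), and Gclm at 156 and 155 against 235 and 229.5 CPM (log2 fold change 0.58, SE 0.047, edgeR adjusted p = 6.62e-09). Cat (0.46), Keap1 (0.29) and Txnrd1 (0.15) were higher by less than the minimum, and Cat passed at 0.52 with library size alone as the scaling. In every effector other than Hmox1 both knockout libraries lay above both wild-type libraries on stiff. Here and elsewhere, the share of all tested genes whose libraries stood apart was not counted, so such remarks are descriptions only. The summed macrophage, endothelial and stellate markers given above were also higher in these knockout libraries, and their part was not tested.

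The factor and Hmox1 went the other way on the stiff hydrogel. Nfe2l2 fell from 160 and 170 CPM in wild type to 113 and 109 in the knockout (log2 fold change -0.57, SE 0.052, edgeR adjusted p = 3.15e-08). Hmox1 fell from 136 and 125 CPM to 88.0 and 85.3 (log2 fold change -0.59, SE 0.053, edgeR adjusted p = 2.71e-08). In both genes the knockout libraries were below the wild-type ones with no overlap.

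**Figure D3:**
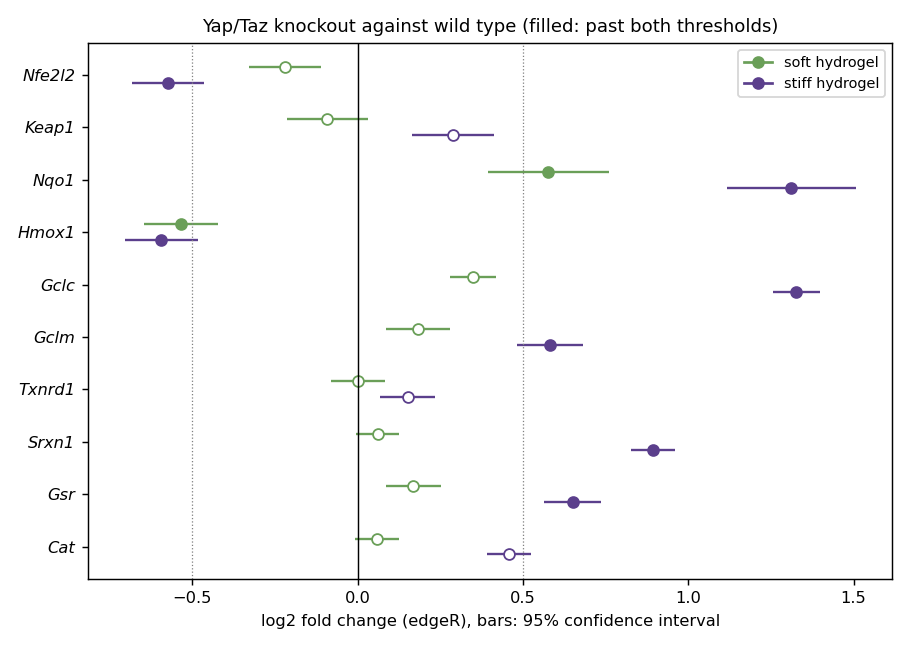
Log2 fold change, Yap/Taz knockout against wild type, of each gene on the soft (green) and stiff (purple) hydrogel, with the edgeR 95% confidence interval as a bar, dotted lines at the minimum fold of 0.5 and filled points past both thresholds. On stiff 5 genes are filled to the right and Nfe2l2 and Hmox1 to the left, and Hmox1 lies near the same place on both hydrogels (-0.53 and -0.59).

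Over the 8 libraries, which fall into separate groups so that a correlation describes mostly those groups, log2 CPM of the genes most like Nfe2l2 among 9964 genes were Cyld (Pearson r 0.991), Cmpk2 (0.991), Nab1 (0.990), Cd47 (0.989) and Crk (0.989). The genes most like Nqo1 were Tenm3 (0.999), Galns (0.997), Lpl (0.997), Cul9 (0.996) and Cd68 (0.995), the last of which is one of the macrophage markers above. Such likeness was common, since 1187 genes had an r over 0.9 with Nfe2l2 and 1204 with Nqo1.

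The pathway around the 10 genes was followed with 4 lists that hold 67 other genes, of which 65 were tested. In wild type 24 of these fell and 3 rose on the stiff hydrogel, with a median log2 fold change of -0.32. In the knockout 0 changed by edgeR, with a median of 0.015. There 4 had an unadjusted edgeR p under 0.05, as did 1077 of all 14279 tested genes. The interaction was positive past both thresholds in 24 and negative in 3 (median 0.33), and the knockout was higher in 9 and lower in 1 on soft (median 0.21) and higher in 32 and lower in 4 on stiff (median 0.50). The background shares are those given above for the 10 genes. Like the 10 genes, the lists were chosen with earlier results of these data known, so the counts are descriptions only.

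Of the regulators of KEAP1 and NRF2 12 of 13 were tested, and 1 rose and 1 fell in wild type. Maff, a small MAF protein and so a candidate partner of NRF2, rose from 44.8 and 45.8 CPM on soft to 76.5 and 73.7 on stiff (log2 fold change 0.73, SE 0.064, edgeR adjusted p = 3.38e-08). Bach1, a repressor that competes with NRF2 for the same elements, fell from 60.1 and 61.1 CPM to 38.3 and 42.0 (log2 fold change -0.60, SE 0.066, edgeR adjusted p = 8.66e-07). Neither passed the test in the knockout (log2 fold changes -0.0073 and 0.00023), and on stiff the knockout was lower in Maff (log2 fold change -1.17) and higher in Bach1 (0.58), both past the thresholds.

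The other regulators stayed under the minimum fold in wild type. Cul3, the scaffold of the ligase, had a log2 fold change of -0.43, and Sqstm1 (p62), the autophagy receptor that binds KEAP1, of -0.40, both past the edgeR adjusted p. The other small MAF genes, Mafg (-0.20) and Mafk (0.19), differed in sign, and Mafg overlaps Sirt7 on the same strand, which leaves its counts uncertain. The log2 fold changes were -0.17 for the kinase gene Gsk3b and 0.21 for the related factor Nfe2l1, both past the adjusted p. Rbx1 (0.11), Dpp3 (0.077), Btrc (-0.079) and Bach2 (-0.16) did not pass it. Nfe2l3 had 1 to 12 counts in a library and was not tested.

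Of the glutathione and thioredoxin genes 21 of 22 were tested, and in wild type 1 rose and 7 fell. Slc7a11, the cystine transporter that feeds glutathione synthesis, stood at 415 and 395 CPM on soft and 98.8 and 103 on stiff (log2 fold change -2.01, SE 0.042, edgeR adjusted p = 1.36e-16), and at 580 to 600 CPM in the 4 knockout libraries. Txnip, the thioredoxin-binding protein, fell from 141 and 142 CPM to 45.0 and 45.9 (log2 fold change -1.64, SE 0.051, edgeR adjusted p = 2.51e-14) and was at 158 to 164 CPM in the knockout. Both log2 values were further from 0 than that of any of the 10 genes. Txn2, the mitochondrial thioredoxin, rose from 190 and 196 CPM to 282 and 288 (log2 fold change 0.56, SE 0.045, edgeR adjusted p = 9.81e-09). Gpx2, a glutathione peroxidase, had 24 and 9 counts on soft and 0 and 1 on stiff in wild type, a ratio of 0.0328 (exact 95% interval 0.000807 to 0.196, counting error only), and 33 to 49 counts in each knockout library. It overlaps Fntb on the opposite strand and its counts are uncertain.

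The list for the supply of NADPH, the reducing power of Gsr, Txnrd1 and Nqo1, held 6 genes. All 6 were tested, and in wild type 1 rose and 1 fell. Pgd, of the pentose phosphate pathway, was at 962 and 1013 CPM on soft and 670 and 684 on stiff (log2 fold change -0.54, SE 0.034, edgeR adjusted p = 3.17e-10). G6pdx, the first enzyme of the same pathway, rose from 38.3 and 37.6 CPM to 54.8 and 54.7 (log2 fold change 0.53, SE 0.065, edgeR adjusted p = 2.78e-06), but it overlaps the opposite-strand gene Ikbkg, which has more counts. On stiff the knockout was higher in 4 of the 6 and lower in G6pdx (log2 fold change -0.76).

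In the detoxification and iron list 15 of the 26 genes fell in wild type and 0 rose, with a median of -0.69. Of the 15, 6 share up to 87.8% (Gsta1) and no less than 18.03% (Gstm1) of their 64-base windows with other genes (Gsta1, Gsta2, Gstm1, Gstm3, Cyp2a5 and Ugt1a6a), so their counts are uncertain, and the other 9 share at most 0.288%. Over the 17 tested genes of the list that share at most 5% the median was -0.64. Abcc2, the canalicular exporter of glutathione and bilirubin conjugates, was at 655 and 629 CPM on soft and 240 and 232 on stiff (log2 fold change -1.44, SE 0.038, edgeR adjusted p = 2.30e-15). The carbonyl reductase Cbr3 fell from 27.0 and 33.5 CPM to 11.3 and 11.4 (log2 fold change -1.40, SE 0.11, edgeR adjusted p = 8.98e-09), and the basolateral exporter Abcc4 from 194 and 182 CPM to 71.2 and 72.0 (log2 fold change -1.39, SE 0.047, edgeR adjusted p = 7.82e-14). In the 3 genes the knockout values on stiff were above those of wild type by log2 values of 1.90, 2.35 and 2.24. Ugt1a6a, a glucuronosyltransferase, had only 5 to 48 counts in a library and a share of 37.8%. The share was at most 0.199% for each of the 10 genes.

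**Figure D4:**
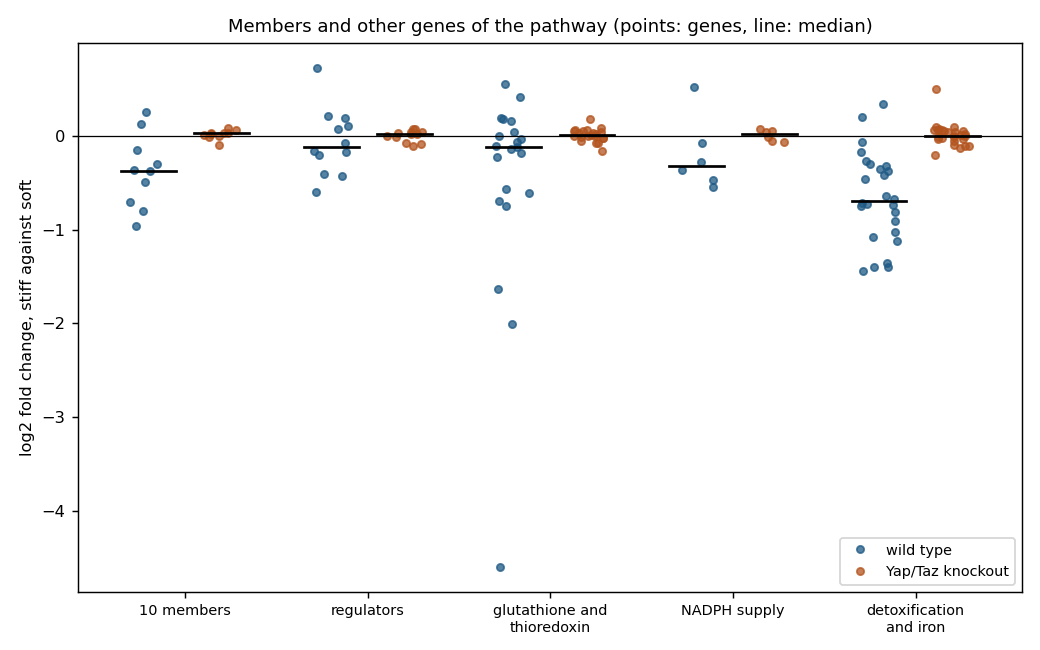
Log2 fold change, stiff against soft, of each tested gene in the 10 genes and the 4 other lists (horizontal axis), in wild type (blue) and Yap/Taz knockout (orange), with a line at each list's median. The wild-type medians run from -0.12 to -0.69 and the knockout medians lie between 0.0055 and 0.029.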

How the data were processed

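RNA of 8 mouse hepatocyte cultures was sequenced as paired ends. Per the paper's methods and the submitters' processing notes, the authors aligned reads with HISAT2 2.0.5 and obtained gene counts with featureCounts. The deposited table holds raw counts with no scaling, beside gene lengths and positions. The notes name mm9, but 2.76% of 52073 matched genes have the position of GENCODE on GRCm38 and the build of the table is not settled, so its positions are printed as given. The methods name dUTP for the cDNA, which keeps the strand, while the labels allow libraries with or without strand. Whether the counting used strand, and how it treated reads matching several genes, is not given in the sources used here.

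Counts were filtered with filterByExpr, scaled by TMM and fitted for all 8 libraries in 4 groups with edgeR 4.0.16 (glmQLFit, glmQLFTest) in R 4.3.3, with 4 residual degrees of freedom. The biological coefficient of variation was 0.0542. A changed gene had a Benjamini-Hochberg adjusted p under 0.05 over all 14279 tested genes and an absolute log2 fold change over 0.5. SEs and 95% intervals come from the F statistic of the same fit. Tests and intervals use more than the 4 residual degrees of freedom, because the fit borrows the spread from the other tested genes. Normalized CPM follows edgeR, RPKM divides it by the table's gene length, and marker sums use raw library totals. Likeness used log2 CPM with a prior count of 2 for genes with a mean of at least 100 counts. The scripts were tested on simulated data. Alternatives were DESeq2 1.42.0, other scalings, filters and fold minimums, robust fitting, a replicate term, fits of the libraries compared, and each library left out. Plots were made in Python 3.11.15 with matplotlib 3.10.9.

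The 10 genes and all lists were chosen with earlier results of these data known. The text names the 10 genes throughout, from each other list up to 3 genes with the highest and 3 with the lowest value among those changed in wild type or in the interaction, the regulators, and the 5 genes most like Nfe2l2 or Nqo1. Exact intervals of count ratios cover counting error only. Precision rests on 18324083 to 26442310 counts per library. Tf was not matched in the table.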

Additional observations from a re-analysis of the deposited data

Results flagged for a closer look

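The effect of stiffness differed between wild type and knockout, by the interaction of the edgeR quasi-likelihood fit (both thresholds), in 3 of the 10 NRF2 genes. Of all tested genes 16.8% passed the same thresholds. The log2 difference, knockout effect minus wild-type effect, was 0.98 for Gclc, 0.83 for Srxn1 and 0.74 for Nqo1. Among the named pathway genes it was 2.04 for Slc7a11, 1.61 for Txnip, 1.49 for Abcc4, 1.46 for Cbr3, 0.60 for Bach1 and 0.60 for Pgd. It was -0.74 for Maff, -0.54 for G6pdx and -0.51 for Txn2. The value for Gpx2 (4.44) rests on 0 and 1 counts in the wild-type stiff libraries and depends on how such counts are handled, and that for Ugt1a6a (1.86) on 5 to 48 counts of a gene that shares sequence with its neighbours. In each of these 14 genes the knockout effect on its own did not pass the test. This does not set them apart, since only 3 of the 14279 tested genes (0.021%) passed it. The groups have 2 libraries each, too few to ask whether 1 library stands apart.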

How the results depend on the processing

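The same member genes passed in every comparison under DESeq2, upper-quartile and DESeq2 scaling, both other filters and robust fitting, and also in the fits of the 4 libraries compared, which the interaction does not allow. With library size alone, 1 gene passed between genotypes on soft in place of 2 (Hmox1 was lost) and Cat was gained on stiff. Without a minimum fold, 9 genes passed in wild type, 9 in the interaction and 6 between genotypes on soft, and with a minimum of 1 these were 0, 0 and 0, with 2 (Gclc and Nqo1) between genotypes on stiff. Signs turned only for values near 0 that no fit called. For Txnrd1 between genotypes on soft the value was -0.00061 with at least 10 counts in every library and -0.00043 with the 4 libraries compared, and -0.040 to 0.047 with each library left out. For the knockout, leaving out each library gave -0.0049 to 0.069 for Gclm, -0.032 to 0.083 for Nqo1, -0.012 to 0.025 for Gclc, -0.034 to 0.015 for Txnrd1 and -0.046 to 0.022 for Gsr.

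Of 404 alternative values of named pathway genes, 18 no longer passed and 0 turned sign, among them Txn2 in the interaction (-0.50 without the first wild-type soft library, -0.50 without the second wild-type stiff and -0.47 without the second knockout stiff library) and Ugt1a6a under DESeq2 (1.85). Over all genes, the 2754, 2405, 952 and 4103 changed in wild type, in the interaction and between genotypes on soft and stiff became 5859, 4192, 2624 and 7299 without a minimum fold and 1244, 1040, 353 and 2097 with a minimum of 1. The 3 changed in the knockout became 50 without a filter, 9 with the 4 libraries compared, 1 with robust fitting, 1 with a minimum of 1 and 1 to 8 with each library left out. The replicate number as a block (replicate block) left 3 genes in wild type, 0 in the knockout, 3 in the interaction, 2 on soft and 7 on stiff. Differences between same-numbered libraries correlated at -0.10 to 0.042, and the labels do not say that a number pairs them. At 2 libraries per group the spread is poorly known, and genes such as Gpx2 are limited by depth. The causes of these shifts were not tested.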

Other observations

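The genes below were chosen after their values were seen. Osgin1, a growth inhibitor often listed as an NRF2 target, was lower in the knockout, where most other genes of the detoxification list were higher. It was at 853 and 934 normalized CPM in wild-type soft and 1133 and 1131 in wild-type stiff, but at 330 and 350 in knockout soft and 367 and 359 in knockout stiff. Every knockout library was below every wild-type library, with log2 fold changes, knockout against wild type, of -1.39 (SE 0.044) on soft and -1.64 (SE 0.044) on stiff (edgeR adjusted p = 1.84e-13 and 1.14e-15). With stiffness it was higher in wild type by less than the minimum (0.34, SE 0.043).

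Further steps of glutathione supply fell in wild type with stiffness. Genes of the glutathione and thioredoxin list outside supply fell past both thresholds too, among them Chac1 (log2 fold change -0.74) and Gpx1 (-0.57). Slc3a2, the heavy chain partner of Slc7a11, was at 560 and 577 CPM on soft and 373 and 372 on stiff (log2 fold change -0.61, SE 0.036, edgeR adjusted p = 1.26e-10), and at 837 to 895 CPM in the 4 knockout libraries. Glutathione synthetase Gss was at 278 and 287 CPM on soft and 174 and 175 on stiff (log2 fold change -0.70, SE 0.044, edgeR adjusted p = 3.41e-10), and at 344 to 364 CPM in the knockout, though it overlaps Acss2 on the opposite strand. Of the conjugation genes, Ugdh, which makes the sugar donor of glucuronidation, fell by 1.07 on the log2 scale in wild type and was higher by 1.43 in the knockout on stiff (edgeR adjusted p = 4.12e-13 and 3.11e-15).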
